A study of Mus musculus with 6 samples.

Results

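The transporters described here are the 46 of 17428 genes in the deposited table whose symbol is Slc4a, Slc8a, Slc9a, Slc12a, Slc20a, Slc24a, Slc26a or Slc34a followed by a number. They were chosen by name alone, across all 3 stages. Expression was measured in EpH4, an established near-normal mouse mammary epithelial cell line, labelled EpH-4, with 2 biological replicates (libraries) of each stage and 6 libraries in all. E cells were grown in normal medium with serum and insulin and without TGFβ1. M cells had the same medium with TGFβ1, an inducer of epithelial-mesenchymal transition (EMT), for 7 days. RE cells were M cells returned to medium without TGFβ1 for another 4 days, which was used to bring about the reverse transition (MET). All stages thus come from 1 cell line grown in culture, and no animal tissue was sequenced. The comparisons ask which transporter transcripts differ after EMT (E vs. M), after MET (M vs. RE), and between the original and the reverted epithelial cells (E vs. RE). Log2 fold changes are positive where the stage named second is the higher.

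Epithelial cells set their internal pH, volume and salt content with these families. Slc4 and Slc26 proteins carry bicarbonate, chloride or sulfate, Slc9 proteins trade a proton for sodium, Slc12 proteins move chloride together with sodium or potassium, Slc20 and Slc34 proteins take up phosphate with sodium, and Slc8 and Slc24 proteins trade calcium for sodium. In the mammary gland they take part in ion and phosphate handling during milk secretion, and in proliferating cells acid extrusion through sodium proton exchange and bicarbonate import accompanies growth and migration.

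Promoter sequences are shown first for 5 of the called genes, in sets picked by their differences between stages. Slc12a4, Slc34a2 and Slc4a4 were higher in RE cells than in both other stages. Slc34a2 was tested only because its RE libraries had enough coverage, so its calls are no support for its place in this set. Slc4a7 and Slc12a7 had the largest rises from E to M among the called genes with an entry. They did not move alike after M, as E vs. RE was called for Slc4a7 and not for Slc12a7. Of the 14 called members, 9 had an entry in the RefSeq promoter table (build GRCm38.p6), and each entry holds 250 bases before and 50 bases after an annotated transcription start, 300 bases in all. Slc4a4 had 2 annotated starts, both shown, and Slc12a7 had 2 starts that overlap, of which the first is shown. Capitals mark matches on either strand to CAGGTG, the E-box read by Snail and ZEB factors, or to CAGAC, the Smad box. A match on the opposite strand reads CACCTG for the E-box, and one for the Smad box reads GTCTG. The 5′ to 3′ sequences on the strand of each gene are as follows.
Slc12a4 (chr8:105966066-105966365, minus strand): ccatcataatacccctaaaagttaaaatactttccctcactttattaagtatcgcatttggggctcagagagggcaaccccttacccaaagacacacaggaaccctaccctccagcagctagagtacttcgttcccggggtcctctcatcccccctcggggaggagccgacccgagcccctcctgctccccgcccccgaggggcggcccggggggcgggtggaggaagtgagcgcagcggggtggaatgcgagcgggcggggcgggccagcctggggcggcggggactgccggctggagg
Slc34a2 (chr5:53049103-53049402, plus strand): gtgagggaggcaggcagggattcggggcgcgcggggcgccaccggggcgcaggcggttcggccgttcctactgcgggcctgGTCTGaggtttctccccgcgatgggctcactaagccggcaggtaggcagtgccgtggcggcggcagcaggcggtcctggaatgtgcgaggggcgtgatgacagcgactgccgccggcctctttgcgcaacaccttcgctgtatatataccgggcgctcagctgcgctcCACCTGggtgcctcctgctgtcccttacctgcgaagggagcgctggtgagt
Slc4a4, first start (chr5:88887010-88887309, plus strand): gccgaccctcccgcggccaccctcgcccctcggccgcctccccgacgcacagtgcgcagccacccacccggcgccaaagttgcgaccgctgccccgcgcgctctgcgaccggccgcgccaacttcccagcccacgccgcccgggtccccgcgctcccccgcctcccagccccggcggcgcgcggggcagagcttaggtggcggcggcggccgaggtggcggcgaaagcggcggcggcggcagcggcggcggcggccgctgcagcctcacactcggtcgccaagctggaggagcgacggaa
Slc4a4, second start (chr5:89027716-89028015, plus strand): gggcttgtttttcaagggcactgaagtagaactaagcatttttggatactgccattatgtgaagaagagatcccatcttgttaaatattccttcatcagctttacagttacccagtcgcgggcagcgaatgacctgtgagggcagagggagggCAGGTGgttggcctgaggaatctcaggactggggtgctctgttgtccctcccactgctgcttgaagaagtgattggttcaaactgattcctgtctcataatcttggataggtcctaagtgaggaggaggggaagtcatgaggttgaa
Slc4a7 (chr14:14718534-14718833, plus strand): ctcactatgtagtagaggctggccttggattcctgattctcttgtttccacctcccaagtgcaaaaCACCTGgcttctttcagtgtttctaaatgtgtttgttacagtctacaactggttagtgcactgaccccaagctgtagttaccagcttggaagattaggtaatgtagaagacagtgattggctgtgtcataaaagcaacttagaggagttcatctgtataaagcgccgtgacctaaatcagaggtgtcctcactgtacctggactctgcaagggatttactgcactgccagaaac
Slc12a7, first start (chr13:73763410-73763709, plus strand): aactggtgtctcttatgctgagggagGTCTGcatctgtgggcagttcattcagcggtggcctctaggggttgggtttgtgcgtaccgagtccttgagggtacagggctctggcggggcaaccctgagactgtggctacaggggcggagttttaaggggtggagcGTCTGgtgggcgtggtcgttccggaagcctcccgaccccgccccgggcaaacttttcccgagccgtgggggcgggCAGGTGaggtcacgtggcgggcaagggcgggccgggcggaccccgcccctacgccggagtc
The E-box stood in 20.2% and the Smad box in 49.6% of 32851 promoters of the same length. Counting the first base before the start as -1, an E-box began at -1 in Slc34a2, at -97 before the second start of Slc4a4, at -184 in Slc4a7 and at -11 in Slc12a7. Smad boxes began at -169 in Slc34a2 and at -224 and -86 in Slc12a7. No marked match overlaps another. The windows of Slc12a4 and of the first start of Slc4a4 held neither string. Among the called genes with an entry that are not shown, Slc12a5 held an E-box at both starts. Slc20a1, Slc24a3 and Slc9a5 held none at any start. Smad boxes stood at both starts of Slc20a1 and at the second start of Slc12a5, and Slc24a3 and Slc9a5 held none. The background shares count single windows, whereas some genes had 2, so they are no measure for a share of genes. The matches describe the sequences, and no binding was measured.

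The deposited values are sequenced bases per gene (coverage) and total 35782513 to 47928556 reads' worth of 50 bases per library. Levels are given in ppm, that is, millionths of the library's coverage after TMM normalization. limma was run on the 13893 genes that reached 500 bases in 2 or more libraries, which include 36 of the transporters. A gene was called a differentially expressed gene (DEG) where its log2 fold change exceeded 1 in size and its p, adjusted over all these genes by Benjamini-Hochberg, was below 0.01. The E libraries differed more from each other (SD of the log2 difference over genes 0.558) than the M (0.318) or RE libraries (0.309). Of 8 luminal markers 7 were in the table, Epcam being not analysed here, and their sum was 1347 to 1655 ppm in E, 1239 to 1256 ppm in M and 778 to 820 ppm in RE. Krt18 was the largest part of this sum in E and M, and the markers did not move alike from E to M. Krt8 rose from 222.9 and 180.8 ppm to 314.5 and 322.5 ppm. Elf5 rose from 0.0463 and 0.0812 ppm to 2.90 and 2.88 ppm. Cldn3 fell from 143.1 and 111.7 ppm to 54.67 and 44.91 ppm, and Cldn7 from 131.7 and 116.8 ppm to 34.21 and 32.7 ppm. The luminal keratin Krt19 stayed at or below 0.1615 ppm and the basal keratin Krt5 at or below 0.478 ppm in every library, whereas Krt8, Krt18 and Cdh1 were at 121.9 ppm or more in each. The 5 basal markers summed to 306 to 374 ppm in E, 787 to 893 ppm in M and 499 to 501 ppm in RE, most of it Krt14. Acta2 was likewise highest in M, at 75.6 and 82.7 ppm beside at most 4.05 ppm in the other libraries, whereas Trp63 was lowest in M, at 59.0 and 81.8 ppm in E, 44.7 and 54.9 ppm in M and 173 and 158 ppm in RE. The 3 fibroblast markers measured of 4 summed to 17.9 to 20.02 ppm, 32.0 to 35.4 ppm and 80.2 to 98.8 ppm, almost all of it Pdgfra, with Dcn at most 3.79 ppm and Col3a1 at most 2.80 ppm. The 3 endothelial markers summed to 0.180 to 0.306 ppm in E, 2.56 to 2.62 ppm in M and 0.409 to 0.412 ppm in RE, and of these Cdh5 was at 0 ppm in both E libraries, 2.33 and 2.07 ppm in M and 0.0423 and 0.0910 ppm in RE. The 3 leukocyte markers summed to at most 9.26 ppm, almost all of it Cd68 with Ptprc at most 0.0781 ppm, and the adipocyte and erythroid markers (1 of 2 each) to at most 0.0485 ppm and 0.0260 ppm. The luminal, basal, Pdgfra and Cdh5 levels moved between stages alongside the transporters below, and their part in the results was not tested. In such bulk libraries, fewer cells of a type and less RNA per cell cannot be told apart. The p-values measure the spread between these cultures of 1 line.

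Of the 36 transporters tested, 14 (38.9%) were called in at least 1 comparison, beside 24.2% of all genes tested. From E to M, 7 were called, all 7 higher and 0 lower (19.4% of those tested), where 17% of all genes were called, 8.58% higher and 8.39% lower. From M to RE, 9 were called (25%), 5 higher and 4 lower, where 12.9% of all genes were called, 8.08% higher and 4.79% lower. Between E and RE, 6 were called (16.7%), 5 higher and 1 lower, where 9.37% of all genes were called, 6.2% higher and 3.17% lower. Slc34a2 is among the 36 tested and the 14 called, and in the last 2 counts, although it passed the filter through its RE libraries alone. With the filter applied in every library, which leaves Slc34a2 out, 8 transporters were called for M vs. RE and 5 for E vs. RE. Of the 12184 genes then tested, 1391 and 1146 were called. The median log2 fold change of the transporters was 0.04, 0.15 and 0.09 in the 3 comparisons, beside 0.00, -0.02 and 0.01 over all genes tested. The 2 libraries of one stage did not overlap those of the other for 28 (77.8%), 30 (83.3%) and 23 (63.9%) of the 36 transporters, beside 70.6%, 78.1% and 66.7% of all genes tested. Slc34a2 is among the 30 and the 23.

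The direction of the E vs. M calls depended on the scaling and on E replicate 1. In both settings the calls over all genes also leaned more to lower in M than in the main fit. This shift over all genes was small without E replicate 1 and large with library totals. Without E replicate 1, 10 transporters were called for E vs. M, 6 higher and 4 lower, with Slc9a5 lost and Slc24a3, Slc4a11, Slc9a7 and Slc9a9 gained as lower in M. With library totals in place of TMM, the median of all genes shifted from 0.00 to -0.29 for E vs. M and from -0.02 to 0.18 for M vs. RE. The E vs. M calls became 5 higher and 3 lower, with Slc20a1 and Slc9a5 lost and Slc12a9, Slc24a3 and Slc24a6 gained as lower in M. Of the 2631 genes called for E vs. M with library totals, 30.5% were higher, beside 50.6% of 2358 with TMM. With library totals the M vs. RE calls became 6 higher and 2 lower. There 73.8% of the 1905 genes called were higher, beside 62.8% of 1789 with TMM. The E vs. RE calls were 5 higher and 1 lower under both scalings. Of all genes called there, 57.1% of 1215 were higher with library totals and 66.2% of 1302 with TMM. The comparisons share libraries, so their calls are given side by side and not as separate evidence. Of the 7 transporters that rose from E to M, 5 were not called between E and RE, among them Slc12a5, Slc12a7, Slc20a1 and Slc9a5, and 2 of those, Slc12a5 and Slc9a5, also fell from M to RE. The other two, Slc26a2 and Slc4a7, were called higher in RE than in E as well. Slc12a4, Slc34a2 and Slc4a4 were higher and Slc4a11 was lower in RE than in both E and M. For Slc34a2 the filter fixed these calls in advance.

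**Figure D1:**
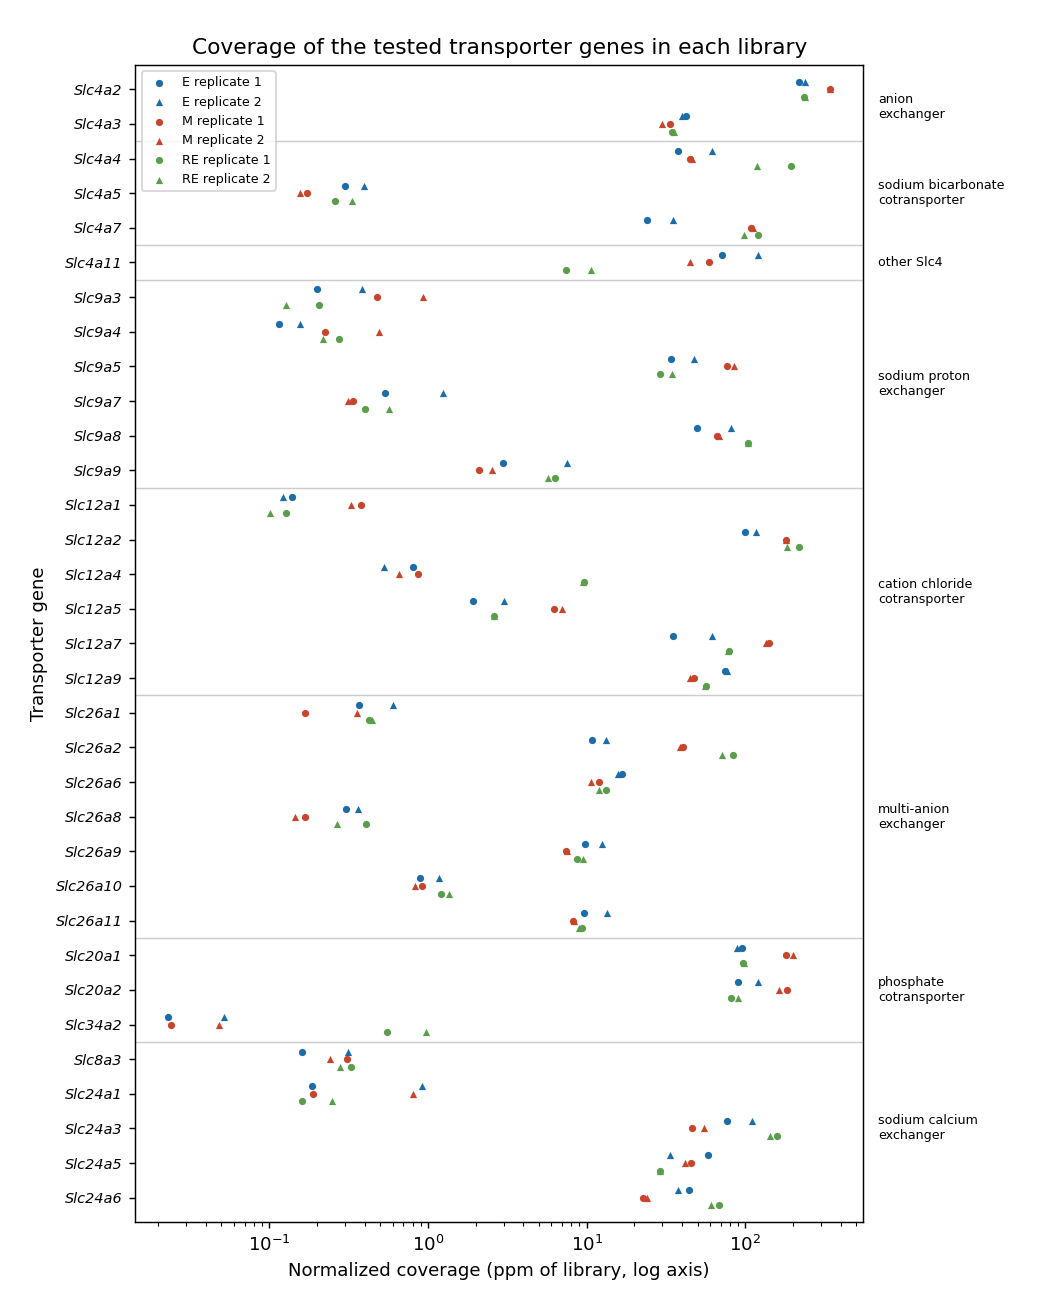
Normalized coverage in ppm (log axis) of 33 transporter genes tested, grouped by role, with 1 point for each library (E blue, M red, RE green, circles for replicate 1 and triangles for replicate 2). Levels run from 0.0231 ppm for Slc34a2 in an E library to 342 ppm for Slc4a2 in an M library, and the RE points of Slc12a4 and Slc34a2 stand apart above, and those of Slc4a11 below, the other stages.

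Of 3 sodium bicarbonate cotransporters tested, 2 were called, both of them higher in RE than in E. Slc4a7 encodes the electroneutral sodium bicarbonate cotransporter NBCn1, which alkalinizes cells. Its coverage was 24.1 and 34.8 ppm in E, 108 and 112 ppm in M and 119.8 and 98.3 ppm in RE. Both M and both RE libraries lay above both E libraries, and M and RE overlapped. Slc4a7 rose by a log2 fold change of 1.92 ± 0.20 (SE, adjusted p = 0.0003) from E to M and stood 1.90 ± 0.20 (adjusted p = 0.000868) above E in RE, while M vs. RE gave -0.02 ± 0.20 (adjusted p = 0.951).

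Slc4a4, the electrogenic sodium bicarbonate cotransporter NBCe1, followed another course. It stood at 37.8 and 61.3 ppm in E, 45.0 and 46.4 ppm in M and 194 and 118 ppm in RE. The M values lay between the E values, and both RE values were above all others but far from each other. It rose from M to RE by 1.73 ± 0.28 (adjusted p = 0.00343) and was 1.65 ± 0.28 higher in RE than in E (adjusted p = 0.00562), with E vs. M at -0.07 (adjusted p = 0.851). Leaving out RE replicate 1, the higher of the pair, gave 1.37 (adjusted p = 0.0351) for M vs. RE and 1.29 (adjusted p = 0.0594) for E vs. RE. Leaving out either M library also ended both calls, and leaving out RE replicate 2 ended the E vs. RE call. Leaving out either RE library took the E vs. RE difference of Slc4a7 to adjusted p-values of 0.0111 to 0.0203. Slc4a5, the third cotransporter tested (NBCe2), stayed between 0.157 and 0.396 ppm and was not called, with log2 fold changes of -0.75, 0.57 and -0.18 for E vs. M, M vs. RE and E vs. RE.

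Slc4a11, known for its role in the corneal endothelium and related in sequence to the bicarbonate carriers, had the largest fall among the 36 transporters tested. Its coverage was 71.6 and 120.2 ppm in E, 59.0 and 44.9 ppm in M and 7.37 and 10.7 ppm in RE. The 3 stages did not overlap. Its log2 fold change was -2.52 ± 0.29 for M vs. RE (adjusted p = 0.000624) and -3.37 ± 0.29 for E vs. RE (adjusted p = 0.00049), both called. The E vs. M difference of -0.85 did not pass the call (adjusted p = 0.0472). Without RE replicate 1 the E vs. RE difference was -3.10 (adjusted p = 0.0117), while M vs. RE was called under every alternative run.

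The chloride bicarbonate exchangers, which load chloride and remove bicarbonate, were not called. Slc4a2 (AE2), the exchanger of most epithelial cells, was the best covered transporter, at 219 and 238 ppm in E, 342 and 341 ppm in M and 233 and 236 ppm in RE. Both M libraries were above all others, but the E vs. M difference of 0.58 (adjusted p = 0.0086) and the M vs. RE difference of -0.54 (adjusted p = 0.0147) were under the fold limit. Slc4a3 (AE3) lay between 29.7 and 42.0 ppm. Slc4a2 shares 1141 exonic bases with Fastk on the opposite strand, and whether the counting used strand is not given in the sources used here, so part of its coverage may belong to that gene.

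Of 8 sodium proton exchangers tested, 2 rose from E to M and 1 fell from M to RE. Slc9a5 (NHE5), best known from brain and recycling endosomes, had 33.97 and 47.2 ppm in E, 77.1 and 84.7 ppm in M and 28.8 and 34.3 ppm in RE. M was above both other stages, which overlapped. It rose from E to M by 1.01 ± 0.19 (adjusted p = 0.00461) and fell from M to RE by 1.36 ± 0.19 on the log2 scale (adjusted p = 0.00156). The E vs. M rise was just past the fold limit of 1, and 5 of the 6 libraries, all but E replicate 2, ended the call when left out (log2 fold change 0.77 to 1.08, adjusted p up to 0.0513). The M vs. RE fall was lost without any 1 of the M or RE libraries (adjusted p 0.0125 to 0.0264).

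Slc9a8 and the other exchangers named next were not called. Slc9a8, found at the Golgi, was at 49.6 and 81.6 ppm in E, 66.4 and 68.7 ppm in M and 103 and 104 ppm in RE, with both RE libraries above the rest and an E vs. RE difference of 0.70 (adjusted p = 0.0472). Slc9a9, of late endosomes, ranged from 2.11 to 7.54 ppm, with a log2 fold change of 1.35 for M vs. RE that missed the p limit (adjusted p = 0.036). Slc9a7, Slc9a3, the apical exchanger of kidney and gut, and Slc9a4 lay between 0.116 and 1.25 ppm and were not called, although the M vs. RE difference of Slc9a3 was -1.55 (adjusted p = 0.0303). Slc9a2 was under the coverage filter.

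The potassium chloride cotransporters, which let chloride and water out of the cell, include Slc12a4, Slc12a5 and Slc12a7. Slc12a5 and Slc12a7 stood highest in M, and the fall from M to RE was called for Slc12a5 and not for Slc12a7. Slc12a4 (KCC1) stood higher in RE than in both other stages. It was low in E, at 0.801 and 0.530 ppm, and in M, at 0.867 and 0.661 ppm, and stood at 9.65 and 9.46 ppm in RE. The RE mean was 14.4 times the E mean and 12.5 times the M mean. The log2 fold change was 3.49 ± 0.27 for M vs. RE (adjusted p = 9.7e-05) and 3.68 ± 0.27 for E vs. RE (adjusted p = 0.000342). E and M overlapped, with a difference of 0.19 (adjusted p = 0.606).

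Slc12a7 (KCC4) was at 35.1 and 61.2 ppm in E, 140.3 and 135 ppm in M and 79.0 and 78.1 ppm in RE, with no overlap between stages. It rose from E to M by 1.57 ± 0.24 (adjusted p = 0.00191), and the M vs. RE difference of -0.81 (adjusted p = 0.0373) and the E vs. RE difference of 0.76 (adjusted p = 0.0478) were not called. Slc12a5 (KCC2), known as the chloride extruder of neurons, had low levels of 1.93 and 3.04 ppm in E, 6.22 and 7.04 ppm in M and 2.61 and 2.60 ppm in RE. Its M libraries stood above the others, and E enclosed RE. It rose by 1.41 ± 0.25 from E to M (adjusted p = 0.00391) and fell from M to RE by 1.31 ± 0.25 on the log2 scale (adjusted p = 0.00704). Both Slc12a5 calls were lost without any 1 of the M or RE libraries (adjusted p 0.013 to 0.0425 and 0.0486 to 0.0671), the Slc12a7 call without either M library (0.0199 and 0.0229), and the E vs. RE call of Slc12a4 without RE replicate 1 (3.66, adjusted p = 0.0117).

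Slc12a2 (NKCC1), which brings chloride in with sodium and potassium, was the best covered of the family. It had 99.3 and 117 ppm in E, 181 and 180.0 ppm in M and 217 and 182 ppm in RE. Both later stages lay above E, and the log2 fold changes of 0.74 for E vs. M (adjusted p = 0.0063) and 0.88 for E vs. RE (adjusted p = 0.00517) met the p limit and not the fold limit. Slc12a9, a family member without a settled substrate, went the other way, from 74.2 and 76.3 ppm in E to 47.7 and 44.9 ppm in M and 56.7 and 55.4 ppm in RE (E vs. M -0.70, adjusted p = 0.00361). Slc12a1, the kidney form NKCC2, stayed at or below 0.379 ppm.

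Slc26a2 was the called member of the multi-anion exchangers, and 6 others were tested and not called. Slc26a2 carries sulfate into the cell for the sulfation of proteoglycans. Its coverage was 10.8 and 13.3 ppm in E, 40.4 and 38.7 ppm in M and 83.1 and 70.9 ppm in RE. The stages did not overlap, and RE was the highest. Slc26a2 rose by 1.72 ± 0.16 from E to M (adjusted p = 0.000204) and was 2.67 ± 0.16 higher in RE than in E (adjusted p = 0.000223), and both calls held under every alternative run. The M vs. RE difference of 0.96 (adjusted p = 0.00371) was just under the fold limit. The best covered of the uncalled members was Slc26a6, a chloride, oxalate and bicarbonate exchanger, at 16.6 and 15.8 ppm in E, 11.9 and 10.7 ppm in M and between those in RE. All 6 uncalled members had a lower fitted level in M than in E, with log2 fold changes of -0.21 to -0.76, and none of these differences passed. Slc26a1 shares 141 and Slc26a10 shares 715 exonic bases with a gene on the opposite strand (Idua and B4galnt1). Slc26a9 and Slc26a11 ranged from 7.45 to 13.4 ppm, and Slc26a1, Slc26a8 and Slc26a10 from 0.146 to 1.36 ppm.

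The phosphate cotransporters of the Slc20 family were highest in M. Slc20a1 (PiT-1), a phosphate importer present in most cells, was at 95.6 and 89.0 ppm in E, 179.8 and 200.3 ppm in M and 96.7 and 98.02 ppm in RE. M lay well above both E and RE, and RE lay just above E. It rose from E to M by 1.04 ± 0.13 (adjusted p = 0.000714), with M vs. RE at -0.96 (adjusted p = 0.00127), under the fold limit, and E vs. RE at 0.08 (adjusted p = 0.672). Slc20a2 (PiT-2), its close relative, was at 89.7 and 120.3 ppm in E, 182 and 163 ppm in M and 81.5 and 89.8 ppm in RE. It fell from M to RE by 1.01 ± 0.17 on the log2 scale (adjusted p = 0.0037), and E vs. M was 0.73 (adjusted p = 0.0115). Both genes stood highest in M, and their differences lay close to the fold limit on either side. The Slc20a1 call was lost without E replicate 2 (0.99, under the fold limit) and without M replicate 1 or M replicate 2 (adjusted p = 0.0106 and 0.0173), and the Slc20a2 call without any 1 of the M or RE libraries (adjusted p 0.0294 to 0.0539) and with median-of-ratios size factors. Slc20a2 shares 95 exonic bases with Smim19 on the opposite strand.

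Slc34a2, the apical phosphate cotransporter NaPi-IIb of lactating mammary gland and lung, was detected above the floor in RE libraries only. The floor was set at 150 bases, or 3 reads' worth, per library. Slc34a2 had 50 and 100 bases in the E libraries and 50 and 100 bases in the M libraries, which is 0.0231 and 0.0521 ppm and 0.0240 and 0.0485 ppm. The RE libraries had 1300 and 2150 bases, or 0.550 and 0.978 ppm. RE was therefore at least 9.79-fold higher than E and at least 10.5-fold higher than M, against the floor. It reached the filter of 500 bases through the RE libraries alone, the stage where it is high, so that it had to differ, and its call in each of these comparisons is no support for the difference. Both calls were absent with the filter applied in every library, where 8 and 5 transporters were called, with a pseudocount of 1 ppm and without either M library. Without either RE library Slc34a2 missed the filter and was not tested. Slc34a3 was under the filter with all libraries.

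**Figure D2:**
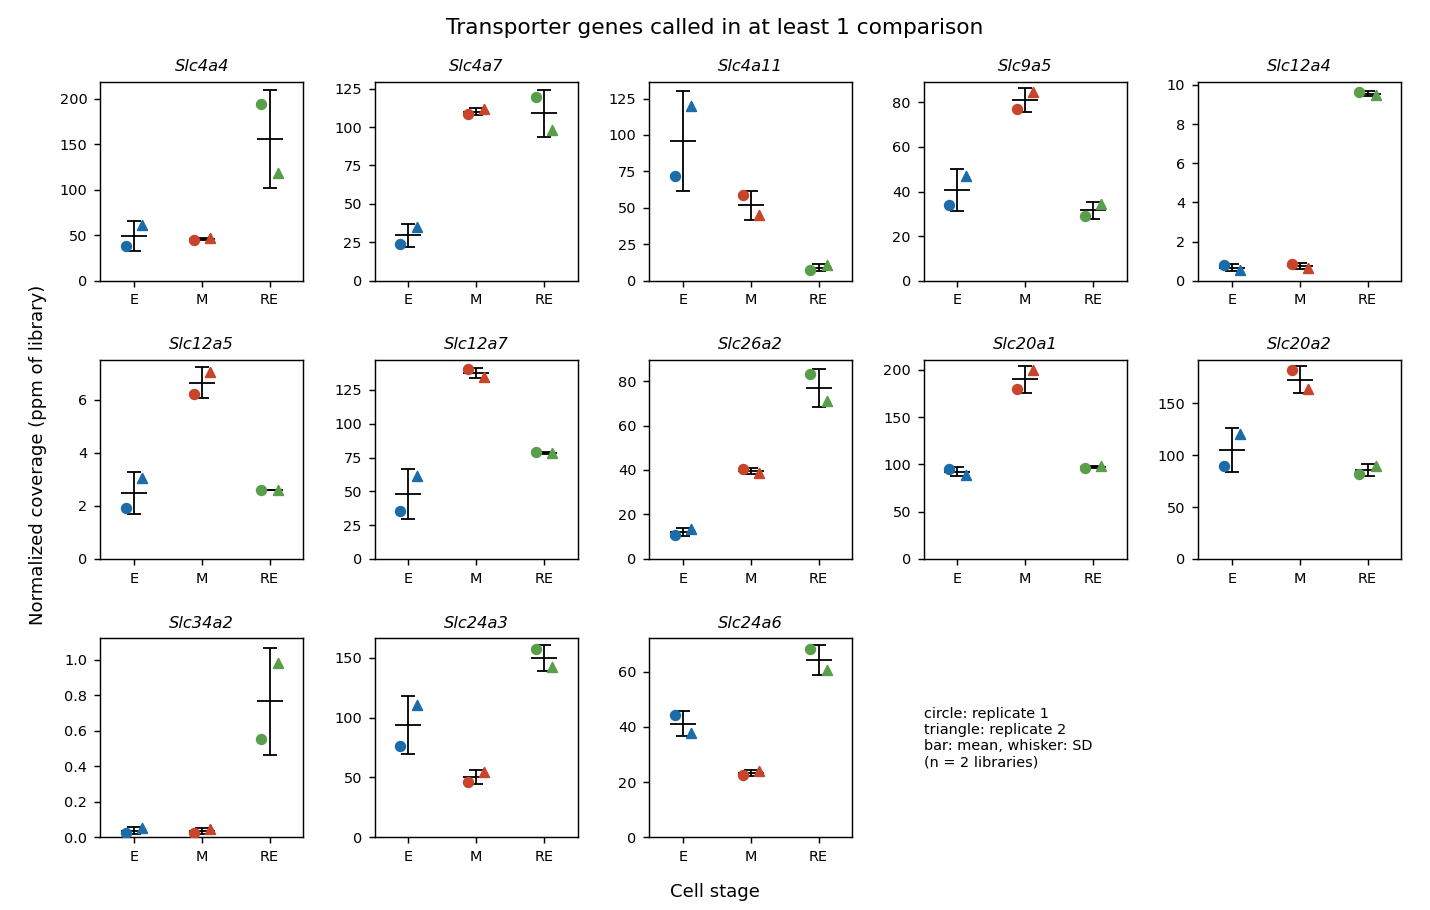
Normalized coverage in ppm (linear axes from 0, 1 panel for each gene) of 13 transporters called in at least 1 comparison, with each library as a point, the mean of 2 libraries as a bar and the SD as whiskers. Slc12a4, Slc34a2, Slc4a4, Slc26a2, Slc24a3 and Slc24a6 are highest in RE, and Slc4a11 is lowest in RE. Slc9a5, Slc12a5, Slc12a7, Slc20a1 and Slc20a2 are highest in M, and Slc4a7 overlaps between M and RE, both above E.

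The sodium calcium exchangers gave 2 calls, both from M to RE. Slc24a3 (NCKX3), which removes calcium from the cell in exchange for sodium, with potassium as a further cargo, was at 76.6 and 111 ppm in E, 46.0 and 54.7 ppm in M and 157 and 142 ppm in RE. The stages did not overlap, with M lowest and RE highest. It rose from M to RE by 1.57 ± 0.20 (adjusted p = 0.000956), and E vs. M was -0.88 and E vs. RE 0.70 (adjusted p = 0.033). Slc24a6 is the older symbol of Slc8b1, the sodium calcium exchanger of mitochondria (NCLX).

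Slc24a6 had the same order of stages, at 44.4 and 37.9 ppm in E, 22.6 and 24.03 ppm in M and 68.1 and 60.5 ppm in RE, without overlap. Its rise from M to RE of 1.46 ± 0.15 (adjusted p = 0.000334) was called under every alternative run, whereas E vs. M (-0.82, adjusted p = 0.004) and E vs. RE (0.64, adjusted p = 0.0159) were under the fold limit. The Slc24a3 call was lost without M replicate 1 or either RE library (adjusted p 0.0115 to 0.0181). Slc24a5, known from pigment cells, was at 58.3 and 33.5 ppm in E, 45.3 and 41.7 ppm in M and 29.2 and 28.9 ppm in RE and was not called. It shares 921 exonic bases with Myef2 on the opposite strand. Slc24a1 and Slc8a3, of photoreceptors and of nerve and muscle, lay between 0.162 and 0.924 ppm. The libraries of Slc24a1 differed from each other by 1.83 in E and 1.65 in M on the log2 scale.

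**Figure D3:**
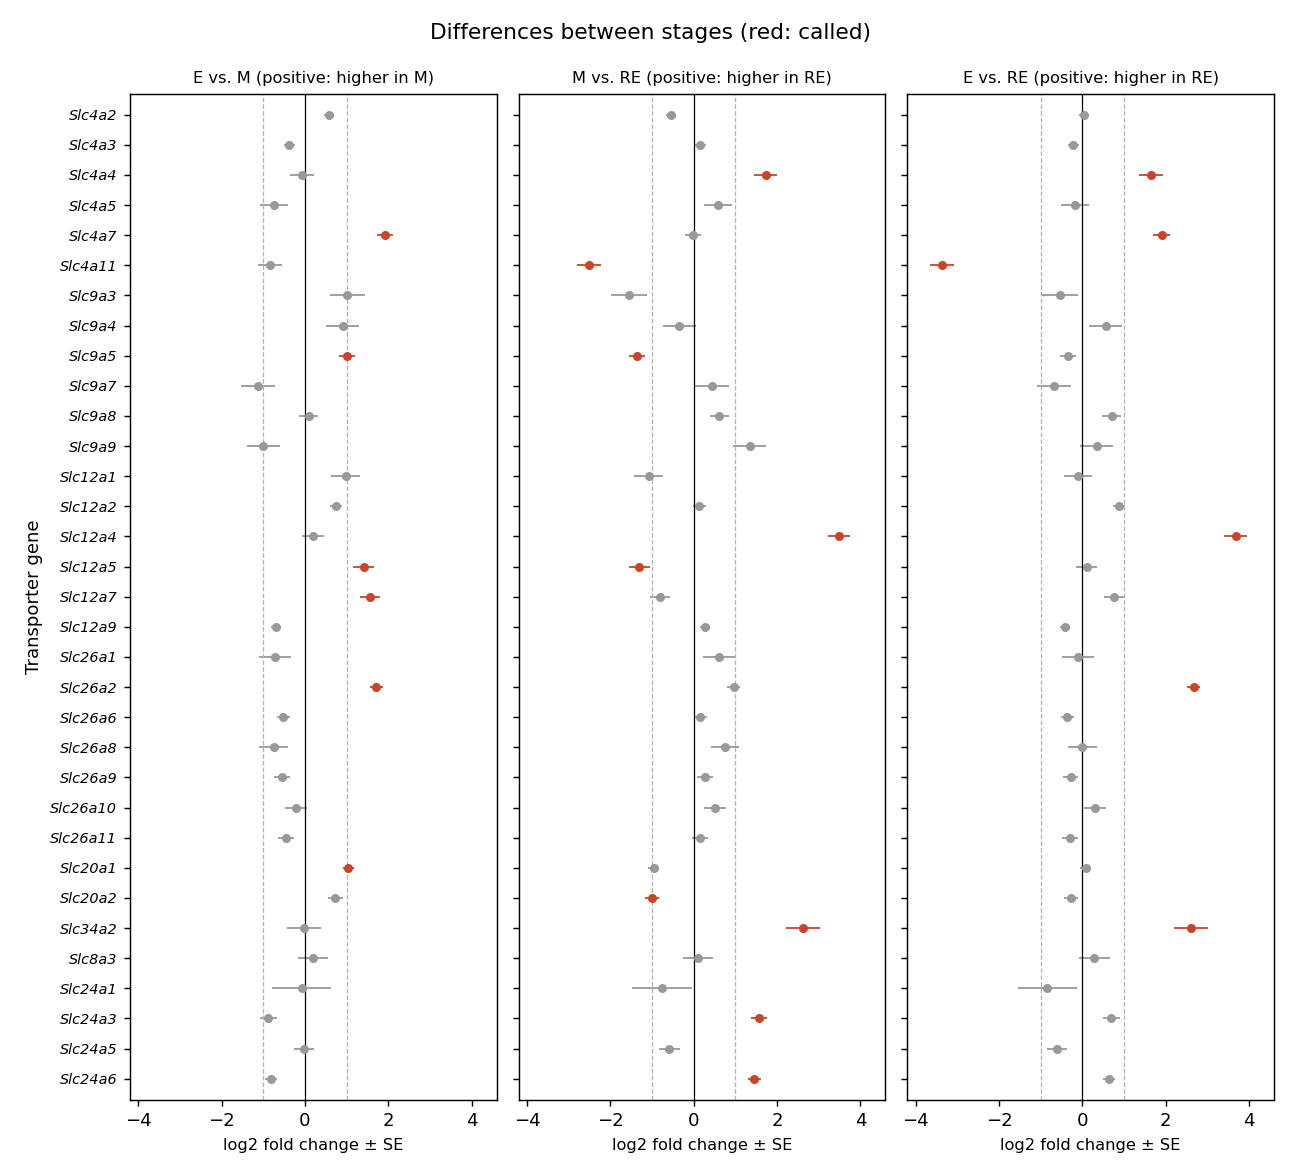
Log2 fold change ± SE from limma for 33 transporters tested (positive: higher in the stage named second), with called genes in red and dashed lines at the fold limit. All 6 red points of E vs. M lie to the right, M vs. RE has 5 to the right and 4 to the left, and E vs. RE has 5 to the right and Slc4a11 at -3.37.

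Levels were compared between genes after division by length (ppm per kb of exon), with exon lengths from a GRCm38 annotation that matched all 46 symbols and is newer than the NCBI-m37 build the authors mapped to. These shares are descriptions. Within the sodium bicarbonate cotransporters, Slc4a7 made up 30.8% and 28.3% of the class in E, 62.8% and 62.9% in M and 30.4% and 37.02% in RE, and Slc4a4 67.8% and 70.2%, 36.7% and 36.7%, and 69.3% and 62.6%. The more abundant cotransporter was thus Slc4a4 in E and RE and Slc4a7 in M. The class as a whole summed to 5.16 and 8.07 ppm per kb in E, 11.3 and 11.7 in M and 25.9 and 17.5 in RE.

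In the cation chloride cotransporters, Slc12a9 held the largest share in E (50.7% and 43.4%) and Slc12a2 in M (38.5% and 39.3%) and RE (43.8% and 40.5%). Slc12a7 went from 9.49% and 13.8% in E to 25.7% and 25.3% in M and 13.8% and 15.0% in RE, and Slc12a4 held 4.99% and 5.37% in RE and at most 0.642% in the other libraries. Slc26a2 made up 9.83% and 10.1% of the multi-anion exchangers in E, 34.5% and 34.1% in M and 48.3% and 44.8% in RE. Slc26a6 and Slc26a11 led that class in E instead. Among sodium proton exchangers, Slc9a8 held 32.7% and 32.5% in RE and at most 27.1% elsewhere, and Slc9a5 held 30.9% and 32.5% in M.

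The phosphate cotransporters summed to 31.6 and 35.3 ppm per kb in E, 61.6 and 62.2 in M and 30.6 and 32.2 in RE, with Slc20a1 and Slc20a2 each between 42.3% and 57.7%. Slc34a2 added at most 0.606%. The sodium calcium exchangers were lowest in M, at 36.1 and 37.04 ppm per kb, beside 54.7 and 49.9 in E and 66.8 and 61.1 in RE. Slc24a5 held 45.72% and 28.8% of this class in E, 53.75% and 48.32% in M and 18.74% and 20.25% in RE. It shares 921 exonic bases with Myef2 on the opposite strand, so part of this sum may belong to that gene. Slc4a2 made up between 84.4% and 92.2% of the anion exchangers in every library.

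**Figure D4:**
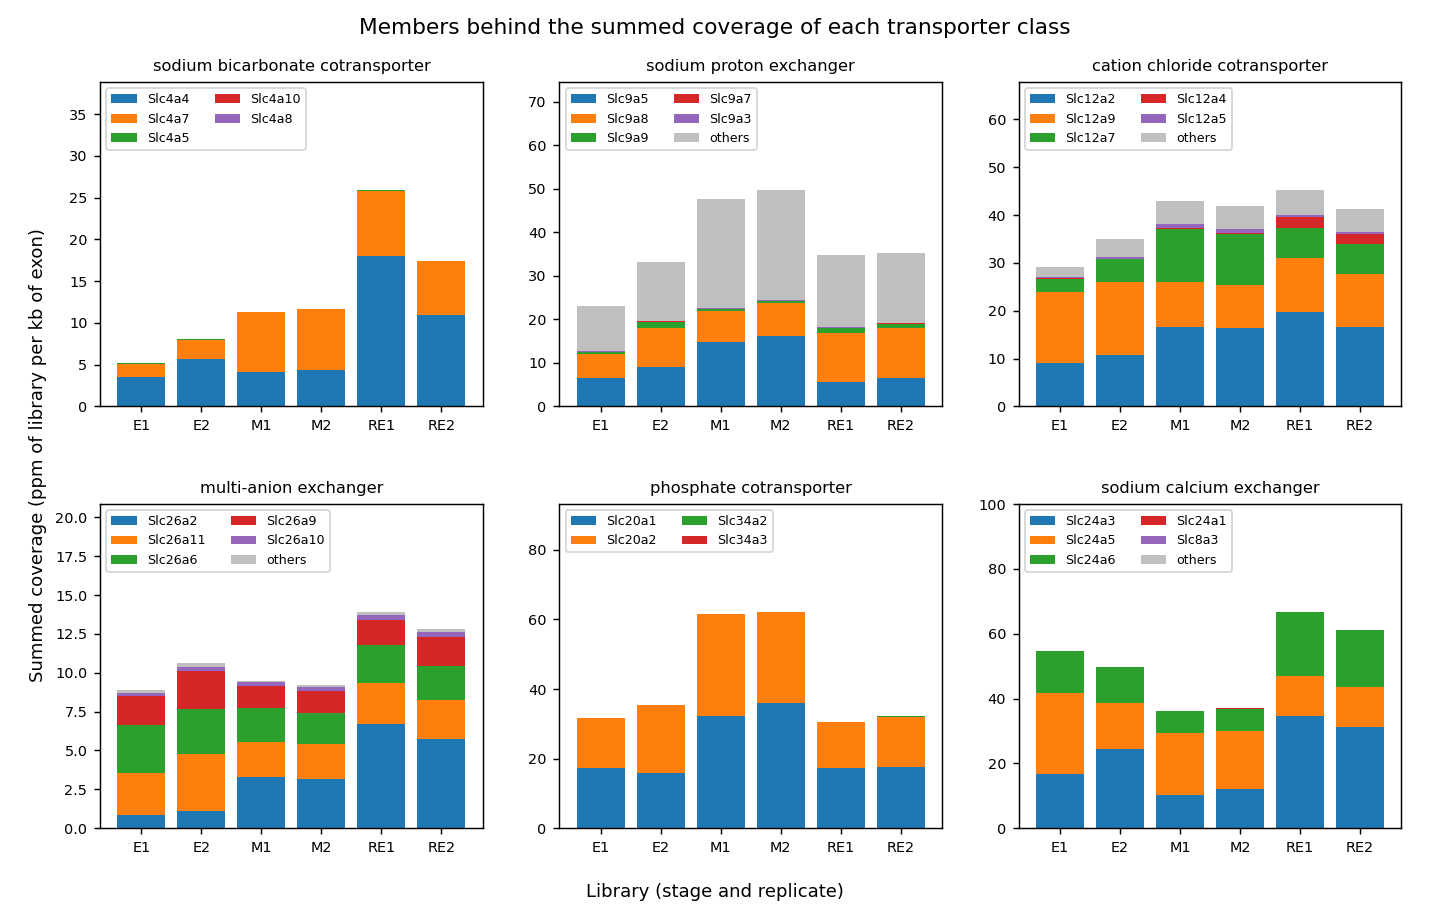
Summed coverage per kb of exon (ppm per kb, linear axes from 0) of 6 transporter classes in each library, stacked by up to 5 well covered members of each class with all others in grey. The phosphate cotransporter bars are at 61.6 and 62.2 in M and at most 35.3 elsewhere, and the orange Slc4a7 block is larger than the blue Slc4a4 block in M alone.

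The 10 transporters under the filter were Slc12a3, Slc12a8, Slc24a4, Slc26a7, Slc34a3, Slc4a10, Slc4a8, Slc4a9, Slc8a2 and Slc9a2, several of them known from kidney or nervous system. Their levels ran from 0 to 0.288 ppm over the 6 libraries. With no filter on low coverage 1 of the 10, Slc4a8, was called lower in M than in E, which made 8 calls for E vs. M, 7 higher and 1 lower. Slc4a8, a sodium-driven chloride bicarbonate exchanger, was at 0.185 and 0.234 ppm in E, 0 and 0.0257 ppm in M and 0.116 and 0.0482 ppm in RE. Both M libraries were at or under the floor of 150 bases, and E was at least 2.88-fold higher against it. The members that passed the filter are not all members, so counts over them describe those with measurable coverage.

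Genes that work with these transporters were taken from 6 lists with 91 genes in the table, 72 of them tested. Of these 18 were called from E to M (11 higher, 7 lower), 16 from M to RE (8 higher, 8 lower) and 9 between E and RE (4 higher, 5 lower). The shares are 25%, 22.2% and 12.5%, beside the 17%, 12.9% and 9.37% of all genes. The lists were chosen with earlier results of these data known, so the shares are descriptions only. Of 10 carbonic anhydrases tested, the enzymes that make bicarbonate, 2 fell from E to M, 3 rose from M to RE and 2 were lower in RE than in E. Secreted Car6 was at 11.01 and 19.0 ppm in E, 0.451 and 0.519 ppm in M and 0.610 and 0.652 ppm in RE (E vs. M -4.64, adjusted p = 4.4e-05, and E vs. RE -4.32, adjusted p = 0.000307). Car9, a hypoxia-induced surface enzyme, went from 67.0 and 51.5 ppm to 16.9 and 15.4 ppm and back to 38.2 and 36.9 ppm (-1.86, adjusted p = 0.00016, then 1.22, adjusted p = 0.0014). Cytosolic Car2 was called lower in RE than in E (-2.39, adjusted p = 0.00321).

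Of 15 kinases and scaffolds tested, 1 was called from E to M, 1 from M to RE and 2 between E and RE. Stk39 (SPAK), the kinase that switches Slc12a2 on and the potassium chloride cotransporters off, had 14.2 and 14.3 ppm in E, 15.0 and 15.6 ppm in M and 4.47 and 5.33 ppm in RE, with log2 fold changes of -1.63 for M vs. RE (adjusted p = 0.000355) and -1.53 for E vs. RE (adjusted p = 0.00107). Wnk1, which acts upstream of it, rose from E to M by 1.56 (adjusted p = 0.00949) from unequal E values of 374 and 874 ppm. Slc9a3r2, a scaffold for sodium proton exchangers, was 1.04 higher in RE than in E (adjusted p = 0.00562).

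Of 19 chloride channel genes tested, 6 rose from E to M, 3 fell from M to RE and 1 was higher in RE than in E. Ano1, a calcium-activated chloride channel, was at 55.1 and 100.1 ppm in E, 406 and 409 ppm in M and 81.8 and 79.1 ppm in RE (2.45, adjusted p = 0.000315, then -2.34, adjusted p = 0.000475). Ttyh2 rose by 2.02 from E to M (adjusted p = 0.00026) and was 1.70 higher in RE than in E (adjusted p = 0.00133), and the endosomal exchanger Clcn5 rose by 1.82 from E to M (adjusted p = 0.00362). Of 16 pump and sodium channel genes tested, 8 were called from E to M (4 higher, 4 lower), 7 from M to RE (3 higher, 4 lower) and 3 between E and RE. The calcium pump Atp2b4 was at 1.70 and 5.96 ppm in E, 164.8 and 177 ppm in M and 21.6 and 20.03 ppm in RE, with log2 fold changes of 5.69, -3.03 and 2.66 (adjusted p = 0.000123, 0.00267 and 0.00625). Atp2a3, a calcium pump of the endoplasmic reticulum, fell from E to M by 3.69 on the log2 scale (adjusted p = 0.000139).

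Of 7 lactate and proton cotransporter genes tested, Emb, a chaperone of lactate carriers, was called. It rose from M to RE by 2.44 (adjusted p = 0.000244) and was 2.07 higher in RE than in E (adjusted p = 0.00113). Of 5 related transporters, Slc37a2, of sugar phosphate exchange, fell from E to M by 1.05 on the log2 scale (adjusted p = 0.00236) and rose from M to RE by 1.72 (adjusted p = 0.000289). The E vs. M calls of Wnk1 and Clcn5 were lost without any 1 of the M or RE libraries, that of Wnk1 also without E replicate 1, and that of Slc37a2 without E replicate 2 or either M library. The M vs. RE calls of Atp2b4 and Car9 were lost without any 1 of the M or RE libraries. Between E and RE, leaving out either RE library left Car6 as the 1 partner gene called, of 9.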

How the data were processed

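Whole-transcriptome libraries of the E, M and RE stages of EpH4 were sequenced, with 2 per stage. Uniquely mapped reads were placed on NCBI-m37 by the authors (Bowtie, TopHat2), who deposited 1 unnormalized table of 17428 gene symbols by 6 libraries. How reads were summed over genes, with which annotation and which tool versions, is not given in the sources used here. The deposited values are a signal, namely coverage in sequenced bases per gene: totals are far above any read number (1789125650 to 2396427835), and 44.8% to 48.4% of values up to 400 are multiples of 50. The study's methods name edgeR, which was not used here because these values are no read numbers.

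Coverage was scaled to ppm with unweighted TMM factors (30% of log ratios and 5% of levels trimmed, factors 0.871 to 1.12). The 13893 genes reaching 500 bases in 2 or more libraries were fitted with limma 3.58.1 in R 4.3.3 on log2(ppm + 0.1), all 6 libraries, stage only, with a trended prior and Benjamini-Hochberg adjustment over all genes tested. This scale understates changes of low genes. The fit was tested on simulated data. Counting error was not compared with the spread between libraries. Floors cover counting error only.

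The members follow from their symbols. The partner and marker lists and tests were chosen with earlier results of these data known. Called members are described with every library, uncalled ones by role with the best covered named, and up to 3 called genes per partner list by largest absolute log2 fold change. Some of these items are not reported here, though they stay in the counts. Alternatives were a 1.5-fold limit, an adjusted p of 0.05, median-of-ratios factors, library totals, no filter, the filter in every library, pseudocounts of 0.025 and 1, the 2 compared stages only, array weights, the replicate number as a block, and leaving out each library. No genome of the authors' build was used. Promoters and exon lengths come from GRCm38 and carry no coordinates of the deposited table.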

Additional observations from a re-analysis of the deposited data

How the results depend on the processing

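Of the 22 calls of transporters, 6 held under every alternative and 16 were lost under at least 1, and 0 reversed. The 6 were Slc26a2 and Slc4a7 (E vs. M), Slc12a4, Slc24a6 and Slc4a11 (M vs. RE) and Slc26a2 (E vs. RE). Leaving out 1 library at a time moved the counts most, and there the lone library of a stage is assumed to vary like the other stages. The calls over all genes tested fell in the same settings. They were fewest without an M library for E vs. M and without an RE library for E vs. RE. For M vs. RE they were fewest without M replicate 1 or RE replicate 1. The ranges given next are therefore no result about the transporters alone. Transporters called were then 2 to 10 for E vs. M, 3 to 11 for M vs. RE and 1 to 11 for E vs. RE, and partner genes 11 to 21, 6 to 17 and 1 to 15. The lowest counts came without an M library for E vs. M (2 without M replicate 1 and 2 without M replicate 2), without M replicate 1 or RE replicate 1 for M vs. RE (3 each), and without RE replicate 1 for E vs. RE (1), and the highest for E vs. RE without E replicate 2 (11, 9 higher and 2 lower). For E vs. M, calls of lower transporters came without E replicate 1 (4 lower of 10), and without any other 1 library there were 0. The values that changed sign were all uncalled differences near 0. With library totals Slc12a4 (E vs. M) became -0.0775, Slc4a7 (M vs. RE) 0.19 and Slc20a1 (E vs. RE) -0.0177. With 1 library left out, E vs. M ran from -0.0711 to 0.44 for Slc12a4 (below 0 without E replicate 2), from -0.16 to 0.14 for Slc34a2 (above 0 without E replicate 2 or M replicate 1) and from -0.42 to 0.27 for Slc4a4 (above 0 without E replicate 2). M vs. RE ran from -0.16 to 0.12 for Slc4a7 (above 0 without M or RE replicate 2), and E vs. RE from -0.21 to 0.41 for Slc12a5 (below 0 without E replicate 1). Their cause was not tested. Fitting only the 2 stages compared cut the calls over all genes for E vs. RE from 1302 to 525 and lost Slc34a2 and Slc4a4 there and Slc12a5 and Slc9a5 in E vs. M. Replicate numbers are shared between stages but nothing in the labels pairs the libraries. The deviations of same-numbered libraries correlated by 0.267 (E and M), 0.116 (M and RE) and 0.058 (E and RE), with 2 pairs each. With the replicate block 7, 9 and 6 transporters and 20, 17 and 9 partner genes were called, and the transporter calls were those made without it. Depth limits the 10 transporters under the filter, Slc34a2 and other low ones that were tested, such as Slc9a4 (250 and 299 bases in E) and Slc12a1 (224 to 300 bases in the E and RE libraries).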
